A study of Mus musculus with 6 samples.

Results

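Mature oligodendrocytes of injured mouse cortex were compared between an ischemic and a physical injury. They are the cells of cluster 4 among the sorted NG2-tdT+ cells, as numbered in the annotation table of the authors, and they make up 592 of 3586 cells in the ischemic injury library and 294 of 2563 in the physical injury library, 886 of 6149 in all. A further 103 of 4306 cells of the naive library fall in the cluster and are given as a background. All mice carried NG2-CreERT2, a tamoxifen-inducible Cre recombinase under the control of the NG2 (Cspg4) promoter, and the Ai14 tdTomato reporter. They were 3 to 4 months old and received tamoxifen. The injured mice then received, 7 days after tamoxifen, an intracerebral injection of endothelin-1 with L-NAME, which constricts vessels (ischemic injury), or of saline (physical injury), and their cortex was taken 3 days later. Naive mice were not injured. Cells positive for tdTomato and negative for DAPI were sorted, cortices of several mice were pooled, and 1 droplet library per condition was sequenced. There is no replicate, no difference between conditions can be tested, and all 95% intervals below cover counting error only. The NG2 promoter is active in oligodendrocyte precursor cells (OPCs), pericytes and smooth muscle, so an oligodendrocyte can enter the sort by having arisen from a labelled precursor or by carrying the label itself, and these routes cannot be told apart here.

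Oligodendrocytes form the myelin sheaths of the central nervous system and support the axons that they wrap. OPCs differentiate into them, stop dividing and switch on genes for myelin proteins and for the lipids of the myelin membrane. After demyelination, ischemia or inflammation, mature oligodendrocytes are known to take up states marked by the protease inhibitor Serpina3n, complement C4b and MHC class I, and the protease Klk6 (kallikrein 6) and the prostaglandin D2 synthase Ptgds mark different mature subtypes in the healthy brain.

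The markers bear out the name. The 12 markers of mature oligodendrocytes summed to 84989 CPM (UMI counts scaled to the total of these cells, where a UMI is 1 tagged transcript) in the ischemic library, 77425 CPM in the physical injury library and 63706 CPM in the naive library, and every injured cell had at least 5 of these UMIs. Markers of other cell types summed to little, but many cells held some. At least 5 UMIs of another type's markers were found in 197 ischemic (33.3%) and 72 physical injury cells (24.5%). The types counted were OPCs, pericytes, smooth muscle, endothelial cells, microglia and astrocytes. OPC markers summed to 145 CPM, 74.1 CPM and 26.8 CPM in the same order, pericyte markers to 165 CPM, 167 CPM and 336 CPM, microglia markers to 72.0 CPM, 112 CPM and 51.2 CPM, and endothelial markers to 36.6 CPM, 34.2 CPM and 4.59 CPM. The OPC sum thus moved with the comparison, as did that of committed precursors (40.7 CPM, 13.6 CPM and 9.17 CPM), and OPC markers reached 5 UMIs in 130 ischemic and 19 physical injury cells.

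Cluster 4 took 16.5% (15.3 to 17.8) of the sorted cells in the ischemic library, 11.5% (10.3 to 12.8) in the physical injury library and 2.39% (1.96 to 2.89) in the naive library. Within the neural clusters alone (4, 6 and 7, that is oligodendrocytes, OPCs and radial glia-like cells, RGPs) it took 44.7% and 43.8%. These clusters differed in their make-up, with 294 OPCs and 438 RGPs in the ischemic and 301 OPCs and 76 RGPs in the physical injury library. A share of sorted cells depends on how many other labelled cells were recovered.

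The injured libraries differ in 3 respects that bear on every value below. The ischemic cells were deeper, with a median of 29601 UMIs against 23779 UMIs, and the naive cells shallower, with 13252 UMIs. The deepest cell of the whole library had 66157 UMIs in the ischemic and 39772 UMIs in the physical injury library, and 147 ischemic oligodendrocytes (24.8%) lay above the highest UMI total or gene number of the physical injury library, where no counterpart was left. The sexes were also mixed unequally. Among cells with UMIs of either Y-linked genes or Xist but not both, Y-linked cells made up 55.6% (51.2 to 59.99) in the ischemic, 31.4% (25.9 to 37.2) in the physical injury and 11.2% (5.74 to 19.2) in the naive library, although equal numbers of cortices of both sexes were pooled per the methods. Results are therefore also given below the shared ceiling of 39772 UMIs and 6783 genes per cell, and within cells of each sex. No cell barcode of the cluster was shared between libraries.

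Of 6447 genes at 20 CPM or more in the higher library, 125 were at least 2-fold higher after ischemic injury, which is 1.94% of those tested, and 18 were at least 2-fold lower, which is 0.279%. The median log2 ratio of ischemic over physical injury, taken here and below on CPM with a pseudocount of 1, was 0.06 over all tested genes, and 91.1% of them lay within 0.5 of 0. Below the shared ceiling 80 genes were higher and 10 lower, with the minimum of 20 CPM applied to the cells kept. Of the 125 genes all stayed on the same side of 0 there, with 91 still past 2-fold when that minimum was not applied again. Within each sex, 99 of the 125 genes were past 2-fold in both sexes, and 7 of the 18, also without that minimum.

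**Figure D1:**
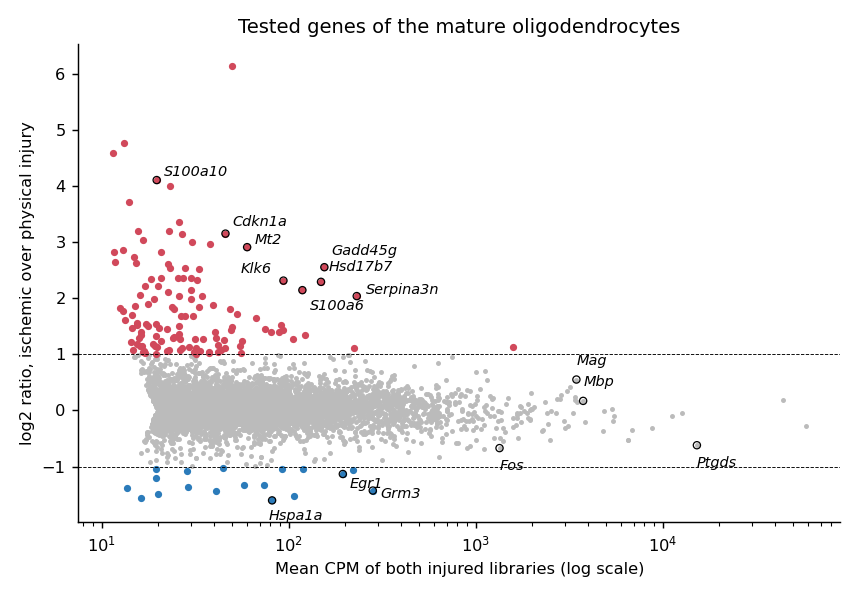
Each point is 1 of the 6447 tested genes of the mature oligodendrocytes, with the mean CPM of both injured libraries on the x axis (log scale) and the log2 ratio of ischemic over physical injury on the y axis. Red and blue points are past 2-fold (dashed lines), 125 higher and 18 lower, and the labelled myelin genes Mbp and Mag lie between the lines at the abundant end.

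Summed over all cells of each library, genes of the myelin program stayed within 2-fold. None of the 20 myelin protein genes passed 2-fold, which is near the background of 1.94% higher and 0.279% lower among all tested genes. Their median log2 ratio was 0.20, with a range from -0.68 to 0.70. Over all tested genes the 5th to 95th percentile ran from -0.37 to 0.57. Mbp, which holds the cytoplasmic faces of the myelin membrane together, was at 3985 CPM after ischemic and 3542 CPM after physical injury. Within 2-fold the members leaned both ways. Mag, the adhesion protein of the inner sheath, was at 4118 CPM against 2811 CPM and the deacetylase Sirt2 at 1396 CPM against 860 CPM, whereas Gpm6b, a membrane glycoprotein, was at 847 CPM against 1363 CPM and Bcas1, which marks cells that begin to myelinate, at 649 CPM against 970 CPM. Of 11 tested transcription factors of the lineage 0 were past 2-fold, and the median was 0.03. Sox10 was at 254 CPM and 269 CPM, Olig2 at 197 CPM and 189 CPM, and Myrf, which switches on myelin genes, at 234 CPM and 222 CPM. The 9 genes of myelin lipid synthesis had a median of 0.16 and none past 2-fold. Of 19 genes of cholesterol synthesis and uptake, 1 was past 2-fold higher, Hsd17b7, beside 1.94% of all tested genes.

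**Figure D2:**
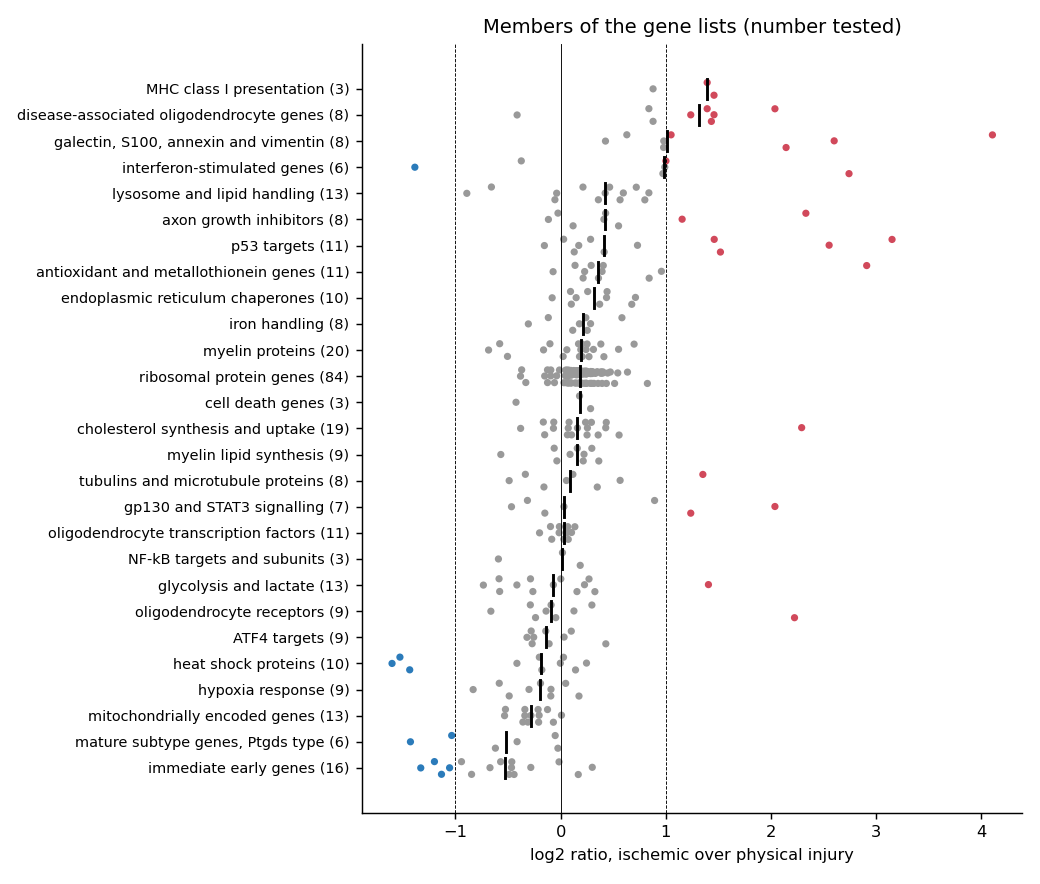
Log2 ratio of ischemic over physical injury (x axis) of every tested member of the gene lists that had at least 3 tested members (y axis, with the number tested), where a black bar is the list's median, red and blue points are past 2-fold and the dashed lines mark 2-fold. Among these, MHC class I and disease-associated oligodendrocyte genes have the highest medians, immediate early genes the lowest, and myelin proteins and oligodendrocyte transcription factors sit near 0. All tested MHC class I genes are also on the disease-associated list.

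Genes of disease-associated oligodendrocytes were the list with most members past 2-fold. Of 8 tested members 5 were at least 2-fold higher after ischemic injury, none was lower, and their median log2 ratio was 1.31, beside 0.06 over all genes and a background of 1.94% higher. The median was 0.64 in Y-linked cells and 1.23 in cells with Xist. All tested MHC class I genes, which are B2m, H2-D1 and H2-K1, are also members of this list. Serpina3n, a secreted serine protease inhibitor, was at 373 CPM after ischemic injury, 90.2 CPM after physical injury and 0 of 1308541 UMIs in the naive library, which allows up to 2.82 CPM. Its log2 ratio was 2.04 (1.93 to 2.17), and a single cell gave 46.6% of its 635 UMIs in the physical injury library. C4b, a complement component that tags targets for clearance, followed the same order at 137 CPM, 49.98 CPM and 5.35 CPM. Socs3, the feedback inhibitor of STAT3 signalling, was at 80.0 CPM after ischemic injury, 33.4 CPM after physical injury and 32.1 CPM in naive cells. Serpina3n and C4b were thus also higher after physical injury than in naive cells, while Socs3 stood apart after ischemic injury alone. Of the 5 members past 2-fold, B2m and H2-D1 fell short of it in Y-linked cells, with log2 ratios of 0.46 and 0.04. Socs3 fell short of it in cells with Xist, at 0.91. Cd63, a lysosomal and exosomal tetraspanin, was at 812 CPM against 453 CPM, and Il33, an alarmin of oligodendrocytes, at 220 CPM against 293 CPM with 706 CPM in naive cells.

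MHC class I genes differed between the sexes of the cells. H2-D1, a class I heavy chain, was at 117 CPM after ischemic and 43.9 CPM after physical injury, and B2m, the invariant light chain, at 111 CPM and 39.6 CPM. In cells with Xist, H2-D1 was at 176 CPM (167 to 186) after ischemic and 35.0 CPM (29.8 to 40.9) after physical injury, and in Y-linked cells at 64.9 CPM (59.6 to 70.7) and 63.3 CPM (52.9 to 75.1). B2m gave log2 ratios of 2.16 (1.95 to 2.46) in cells with Xist and 0.46 (0.18 to 0.76) in Y-linked cells, and H2-K1, another heavy chain, 1.42 (1.19 to 1.72) and 0.18 (-0.16 to 0.55). The ratios of all 3 genes were larger in cells with Xist. Class I heavy chains are a family of similar genes, so the assignment of reads to each is uncertain. Of 6 tested interferon-stimulated genes, Bst2 and Stat2 were past 2-fold higher, beside 1.94% of all tested genes. Bst2, which tethers virus particles to the cell surface, was at 26.6 CPM against 3.12 CPM, where 1 cell gave 12 of 22 UMIs, with log2 ratios of 3.75 in cells with Xist and 1.49 in Y-linked cells. Ifit3 was past 2-fold lower, at 7.10 CPM against 20.2 CPM, but 140 of its 142 UMIs in the physical injury library came from 1 cell. Serpina3n, C4b and Klk6 behaved otherwise and were higher after ischemic injury in both sexes, with log2 ratios in Y-linked cells and cells with Xist of 2.55 and 1.83 for Serpina3n, 1.66 and 1.03 for C4b, and 2.84 and 1.81 for Klk6. The difference between sexes was not tested, and the mice behind each sex are unknown.

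**Figure D3:**
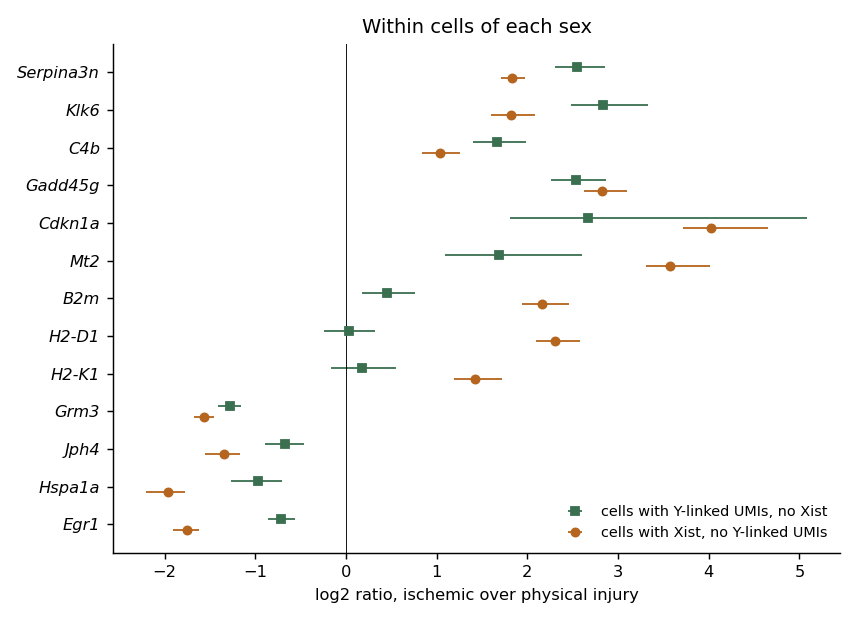
Log2 ratio of ischemic over physical injury (x axis, with 95% counting intervals) for 13 genes (y axis), computed within cells that have Y-linked UMIs and no Xist (green squares, 286 ischemic and 86 physical injury cells) and within cells that have Xist and no Y-linked UMIs (brown circles, 228 and 188 cells). Serpina3n, Klk6, C4b and Gadd45g are above 0 in both, and H2-D1 and H2-K1 are above 0 in cells with Xist, with intervals that include 0 in Y-linked cells.

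Cdkn1a, the cyclin-dependent kinase inhibitor p21 that p53 induces and that arrests the cell cycle, had the largest ratio among the genes at 50 CPM or more with a UMI in at least 10% of cells. The 12 largest ratios each way under these conditions are called the 24 leading genes below. It was at 83.5 CPM (79.3 to 87.9) after ischemic injury, 8.52 CPM (6.50 to 10.97) after physical injury and 3.82 CPM (1.24 to 8.92) in naive cells, a log2 ratio of 3.15 (2.92 to 3.69). Genes of the Gadd45 stress family, whose products bind cell-cycle and stress-kinase proteins, were higher too. Gadd45g was at 266 CPM against 44.6 CPM, Gadd45b at 136 CPM against 46.9 CPM and Gadd45a at 30.3 CPM against 10.4 CPM. Gadd45g and Gadd45a had levels of 38.2 CPM and 16.8 CPM in naive cells, near those after physical injury, while Gadd45b at 105 CPM in naive cells was nearer to the ischemic level. These 4 genes were the members past 2-fold among 11 tested genes of the p53 target list, which includes the Gadd45 family. Their share stands beside 1.94% of all tested genes, and the list's median was 0.41. Phlda3, another p53 target, was at 340 CPM and 302 CPM, and Bax, which permeabilizes mitochondria, at 94.7 CPM and 77.5 CPM, and 10 of the 11 had log2 ratios above 0.

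The remaining leading genes that were higher after ischemic injury had diverse roles. Klk6, the secreted protease of a mature subtype, was at 157 CPM after ischemic and 30.8 CPM after physical injury and had 0 UMIs in naive cells. Hsd17b7, an enzyme of cholesterol synthesis, was at 248 CPM, 49.98 CPM and 32.9 CPM in naive cells. Mt2, a metallothionein that binds zinc and copper, was at 107 CPM, 13.4 CPM and 11.5 CPM. For these genes the naive library lay at or below the physical injury library. Sox4, a transcription factor of immature neural cells, was at 68.0 CPM against 7.81 CPM, Bcat1, the cytosolic branched-chain aminotransferase, at 57.1 CPM against 9.09 CPM, and the adhesion protein Nrcam at 50.9 CPM against 9.09 CPM. The guidance cue Sema5a was at 54.8 CPM against 10.1 CPM, the Ral exchange factor Ralgps2 at 54.9 CPM against 5.96 CPM and the tetraspanin Tspan9 at 56.3 CPM against 12.9 CPM. Their 12 log2 ratios ran from 2.04 to 3.15, and below the shared ceiling all 12 stayed past 2-fold, with Hsd17b7 at 1.43 in place of 2.29 and Cdkn1a at 2.81 in place of 3.15. Of the 2 tested genes of the Klk6 subtype list, Klk6 was past 2-fold higher, beside 1.94% of all tested genes. Both had log2 ratios above 0, with a median of 1.65.

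**Figure D4:**
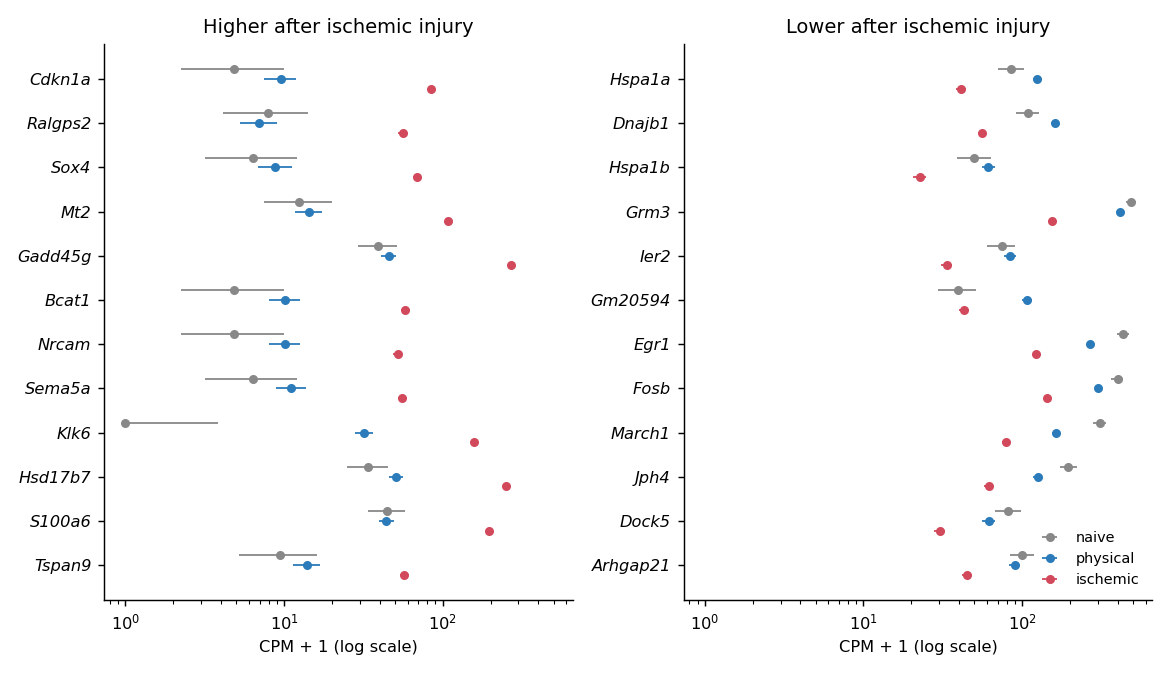
CPM + 1 (x axis, log scale) of the 24 leading genes in the naive (grey), physical injury (blue) and ischemic injury (red) library, with 95% counting intervals. In the left panel the ischemic library lies above both others for every gene, and in the right panel it lies below the physical injury library for every gene and below the naive library for every gene but Gm20594.

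Calcium-binding and cytoskeletal genes that injured glia are known to express were mostly higher as well. Of 8 tested members of the galectin, S100, annexin and vimentin list 4 were past 2-fold higher, beside 1.94% of all tested genes. The median was 1.01, with 2.30 in Y-linked cells and 0.47 in cells with Xist. S100a6 was at 194 CPM after ischemic and 43.2 CPM after physical injury, S100a10, the partner of annexin A2, at 38.2 CPM and 1.28 CPM, and Anxa2 at 39.5 CPM and 5.68 CPM. Vim, the intermediate filament vimentin, was at 42.2 CPM and 19.9 CPM, but with log2 ratios of 2.65 in Y-linked cells and -0.33 (-0.70 to 0.01) in cells with Xist its direction did not hold within sexes. A single cell gave 58.6% of its UMIs in the physical injury library. Fabp5, a fatty acid-binding protein, was the most abundant gene past 2-fold, at 2176 CPM against 997 CPM. Syt4, a synaptotagmin of secretory vesicles, had the largest ratio of all tested genes, at 99.6 CPM against 0.43 CPM. The lower value rests on 3 UMIs. Fewer than 10% of ischemic cells had a UMI of Syt4, so it is not a leading gene. Fabp5 and Syt4 were picked out after their values were seen.

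Genes of the Ptgds subtype were lower in the sums over all cells, but not all of them at equal depth. All 6 tested members had log2 ratios below 0 in these sums, from -1.43 to -0.03, with a median of -0.52. Past 2-fold lower were 2 of 6, beside a background of 0.279%. Grm3, a metabotropic glutamate receptor, was at 153 CPM (147 to 159) after ischemic injury, 412 CPM (397 to 427) after physical injury and 485 CPM (448 to 525) in naive cells. Jph4, a junctophilin that ties the endoplasmic reticulum to the plasma membrane, was at 60.4 CPM, 125 CPM and 194 CPM. Ptgds itself was at 12043 CPM, 18504 CPM and 21396 CPM. All 3 genes were highest in naive and lowest in ischemic injury cells. With every cell thinned to 10000 UMIs, the log2 ratios of these 3 genes stayed below 0, and the list's median was -0.43. Car2 and Apod, of the same list, then had log2 ratios of 0.03 and 0.08. Grm3 was lower in both sexes, with log2 ratios of -1.28 in Y-linked cells and -1.56 in cells with Xist. It was also lower after ischemic injury in the pericytes of clusters 0, 1 and 2, at 639 CPM against 1070 CPM, in OPCs, RGPs, smooth muscle and endothelial cells, and the part of free RNA from pericytes in the oligodendrocyte value was not tested. At 2000 UMIs per cell, Jph4 had 0 UMIs in the pericytes of cluster 1 of both injured libraries and was found in 4 of 919 in the naive library.

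Most immediate early genes and 3 heat shock genes were lower as well. Of 16 tested immediate early genes 14 had log2 ratios below 0, with a median of -0.53. Past 2-fold lower were 4 of them, beside 0.279% of all tested genes. Egr1 was at 122 CPM after ischemic injury, 268 CPM after physical injury and 432 CPM in naive cells, and Fosb at 143 CPM, 298 CPM and 398 CPM. Ier2 was at 32.4 CPM, 82.9 CPM and 73.4 CPM and Egr2 at 11.4 CPM, 27.5 CPM and 32.9 CPM. These genes are known to respond to cell dissociation. In naive cells Egr1, Fosb and Egr2 were higher than after physical injury, and Ier2 was lower. Within Y-linked cells none of these 4 was past 2-fold. Log2 ratios there were -0.71 for Egr1, -0.88 for Fosb, -0.66 for Ier2 and -0.57 for Egr2. In cells with Xist they were -1.75, -1.19, -2.22 and -1.74 in the same order. Of 10 tested heat shock genes 3 were past 2-fold lower, beside 0.279% of all tested genes. Log2 ratios were above 0 for 3, and the median was -0.19. The stress-inducible chaperones Hspa1a and Hspa1b were at 40.0 CPM and 21.6 CPM against 123 CPM and 60.1 CPM, and their partner Dnajb1 at 54.8 CPM against 160 CPM. Hspa1a and Hspa1b are near-identical copies, so the split of reads between them is uncertain. Hsp90aa1, the most abundant member after physical injury, was at 1827 CPM and 2068 CPM. In the sorted pericytes of cluster 1 at 2000 UMIs per cell, 55.6% of physical and 38.2% of ischemic injury cells had a UMI of Hspa1a, against 17.9% and 6.22% of oligodendrocytes, and the part of free RNA in the oligodendrocyte value was not tested. Summed over the pericytes of clusters 0, 1 and 2 the log2 ratio of Hspa1a was -0.10. The other leading genes that were lower were March1, Dock5, Arhgap21 and Gm20594. March1, a ubiquitin ligase, was at 77.6 CPM against 162 CPM, Dock5, an exchange factor of Rac, at 29.2 CPM against 60.6 CPM, and Arhgap21, a GTPase-activating protein, at 44.1 CPM against 88.6 CPM, just short of 2-fold. Gm20594 was lower in every cell type compared, with log2 ratios from -2.07 to -1.002 in the other clusters and -1.32 in oligodendrocytes. Below the shared ceiling all 12 genes stayed lower but 6 of 12 were past 2-fold, and Egr1, Fosb, March1, Jph4, Dock5 and Arhgap21 were not. Within each sex all 12 genes also stayed lower, with 4 past 2-fold in Y-linked cells and 12 in cells with Xist.

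Several stress programs had no member or 1 member past 2-fold, beside 1.94% higher and 0.279% lower of all tested genes. In lists this short a count of 0 is near that background. Of 9 tested hypoxia-response genes none was past 2-fold and the median was -0.19. Vegfa, the vascular growth factor, was at 51.1 CPM after ischemic and 91.7 CPM after physical injury, and the hypoxia-inducible Ndrg1 at 410 CPM and 615 CPM. The 9 tested targets of ATF4, the factor of the integrated stress response, had a median of -0.14 with none past 2-fold, and the 10 endoplasmic reticulum chaperones a median of 0.31 with none past 2-fold. Of 13 glycolysis and lactate genes 1 was past 2-fold higher, beside 1.94% of all tested genes. It was the phosphofructokinase Pfkp, at 24.2 CPM against 8.52 CPM. Gapdh was at 329 CPM and 547 CPM. The median of 3 tested genes of NF-kB signalling was 0.02 and that of 3 tested cell death genes 0.18. Ribosomal protein genes had a median of 0.18 over 84 tested, and the 13 mitochondrially encoded genes -0.28, with a lower median mitochondrial share per cell in the ischemic (3.15%) than in the physical injury library (4.18%). Iron handling (median 0.21) and lysosome and lipid handling (0.42) had 0 members past 2-fold. Antioxidant genes (0.36), tubulins (0.09) and oligodendrocyte receptors (-0.09) had 1 each, of 11, 8 and 9 tested. Gp130 and STAT3 signalling (0.03) had 2 of 7 tested and axon growth inhibitors (0.42) 2 of 8. All of these were higher after ischemic injury, beside 1.94% of all tested genes. Among these members past 2-fold were Tubb3, a tubulin, at 177 CPM against 68.6 CPM and Tnfrsf12a, the receptor of TWEAK, at 33.5 CPM against 6.39 CPM. Apoe, a lipid carrier, was at 220 CPM after ischemic injury, 409 CPM after physical injury and 2115 CPM in naive cells.

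Serpina3n, Klk6 and Cdkn1a were found in a larger share of cells after ischemic injury. To compare cells at equal depth, every cell was thinned to 10000 UMIs, which left 517 ischemic, 286 physical injury and 80 naive cells. At least 3 UMIs of Serpina3n were found in 103 ischemic cells or 19.9% (16.6 to 23.6), in 8 physical injury cells or 2.80% (1.22 to 5.44) and in 0 of 80 naive cells, where the exact interval reaches 4.51%. Klk6 at the same threshold marked 60 cells or 11.6% (8.97 to 14.7) and 7 cells or 2.45% (0.99 to 4.98), and Cdkn1a 42 cells or 8.12% (5.92 to 10.8) and 3 cells or 1.05% (0.22 to 3.04). The threshold was set after the values were seen, and 32 ischemic cells had 1 or 2 UMIs of Serpina3n. Below the shared ceiling the ischemic shares were 15.1%, 9.19% and 6.76%. The pericytes of cluster 1, at 2000 UMIs, had Klk6 in 0.46% of ischemic cells, against 11.2% of oligodendrocytes, and a median of 2984 UMIs against 29601 UMIs before thinning.

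**Figure D5:**
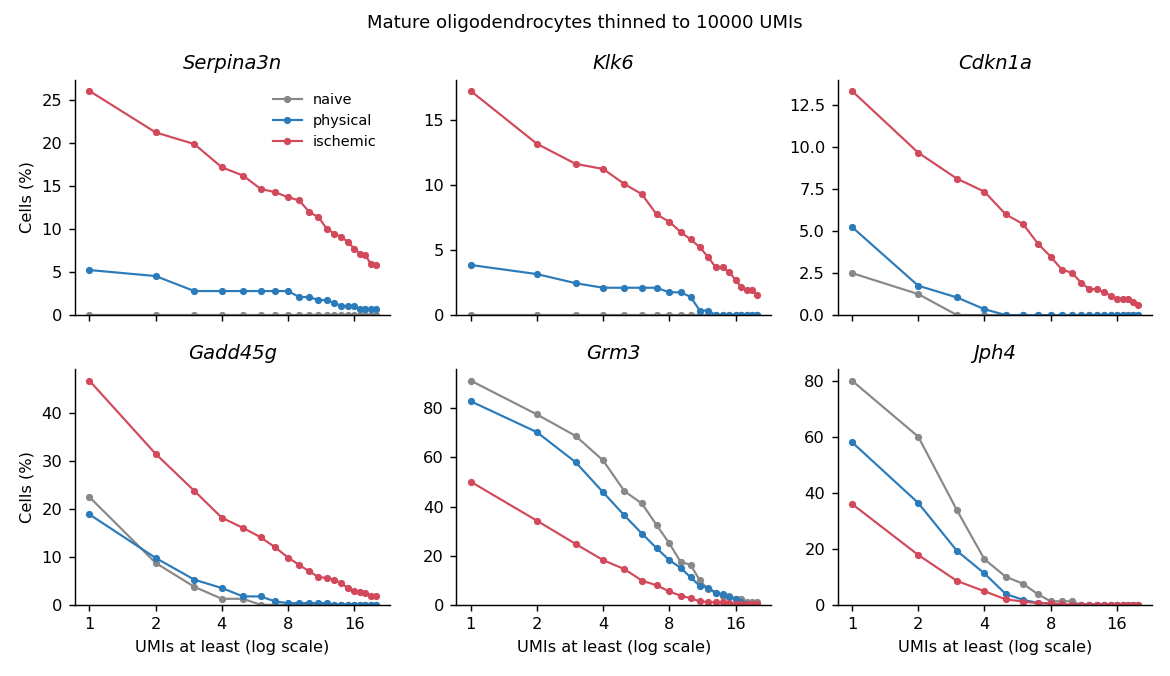
Share of cells (y axis, %) with at least a given number of UMIs (x axis, log scale) of 6 genes in the naive (grey), physical injury (blue) and ischemic injury (red) library, every cell thinned to 10000 UMIs. For Serpina3n, Klk6 and Cdkn1a the ischemic curve starts at 26.1%, 17.2% and 13.3% of cells and stays above the others, and for Grm3 it starts lowest, at 50.1% against 82.9% and 91.3%.

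Cells with Klk6 were nearly all cells with Serpina3n. Of the 60 ischemic cells with at least 3 UMIs of Klk6, 58 also had at least 3 of Serpina3n, as had 6 of 7 in the physical injury library. Of the 42 ischemic cells with at least 3 UMIs of Cdkn1a, 16 (38.1%) were among the 103 with Serpina3n, beside 19.9% of all 517 cells, and these 16 were 15.5% of the Serpina3n cells. The Serpina3n cells had C4b at 406 CPM against 71.3 CPM in the other ischemic cells, S100a6 at 679 CPM against 53.4 CPM, Gadd45g at 648 CPM against 134 CPM, Hsd17b7 at 615 CPM against 90.6 CPM and Fabp5 at 5252 CPM against 1159 CPM. They had less Ptgds (5070 CPM against 15323 CPM) and less Grm3 (65.0 CPM against 207 CPM). In the 8 physical injury cells with Serpina3n several of these levels were alike, with Fabp5 at 5063 CPM and Ptgds at 6550 CPM, and C4b was at 650 CPM, whereas Gadd45g at 163 CPM and S100a6 at 200 CPM were lower than in their ischemic counterparts. OPC markers summed to 325 CPM in the ischemic Serpina3n cells and 81.4 CPM in the rest, these cells had a median of 38653 UMIs against 31245 UMIs, and the part of OPC transcripts or depth in the result was not tested. The Cdkn1a cells had Mt2 at 1095 CPM against 25.7 CPM in the other ischemic cells, Sox4 at 390.5 CPM against 32 CPM, S100a10 at 276 CPM against 15.2 CPM and, unlike the Serpina3n cells, more Ptgds (26821 CPM against 12083 CPM). Mt2 was uneven over cells, with 136 UMIs in the highest ischemic cell at this depth. Before thinning, a single cell gave 14.6% of the 1849 Mt2 UMIs of the ischemic library. Markers of mature oligodendrocytes summed to less in both sets of cells. The sums were 67812 CPM in the Cdkn1a cells against 85207 CPM in the other ischemic cells. For Serpina3n they were 58520 CPM against 90082 CPM in the ischemic and 55425 CPM against 76268 CPM in the physical injury library. Both sets of cells were chosen by their own transcripts, so these levels are a description.

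The Serpina3n cells came from both sexes, and the Cdkn1a cells mostly from one. At least 3 UMIs of Serpina3n were found in 19.3% of 269 ischemic Y-linked cells and 19.7% of 213 ischemic cells with Xist, against 4.88% and 2.15% after physical injury. Cdkn1a was found in 1.86% (0.61 to 4.28) of the Y-linked and 16.4% (11.7 to 22.1) of the ischemic cells with Xist, that is in 5 and 35 cells. Since mice were pooled, these 35 cells may stem from 1 mouse or from several, which cannot be told apart.

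Without the cells that had at least 3 UMIs of Serpina3n or Cdkn1a, 388 ischemic and 275 physical injury cells were left. In them S100a6 was at 37.9 CPM and 35.6 CPM and Mt2 at 12.9 CPM and 10.2 CPM, ratios near 0. Other genes kept a ratio past 2-fold in the remaining cells. Gadd45g was at 132 CPM against 39.6 CPM, a log2 ratio of 1.71 (1.44 to 2.05), Hsd17b7 at 91.5 CPM against 41.5 CPM, Sema5a at 30.2 CPM against 6.55 CPM, H2-D1 at 97.7 CPM against 29.5 CPM and C4b at 72.2 CPM against 31.3 CPM. Grm3, just short of 2-fold, was at 218 CPM against 427 CPM, and Ptgds at 13538 CPM against 19576 CPM. In these cells 41 genes were past 2-fold higher.

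The same comparison in OPCs (294 ischemic and 301 physical injury cells of cluster 6) shared part of this pattern. Cdkn1a was at 90.1 CPM against 21.9 CPM there, Serpina3n at 382 CPM against 135 CPM, Mt2 at 187 CPM against 41.2 CPM, and S100a10 and Anxa2 had log2 ratios of 3.48 and 2.53. Klk6 had 10 UMIs and 0 UMIs in OPCs, and at most 12 in any other cluster compared. In OPCs 9 of the 12 leading higher genes had a positive log2 ratio, and 3 were past 2-fold. Positive ratios were as common in pericytes (10 of 12), and were found for 8 in smooth muscle, 7 in endothelial cells, 6 in RGPs and 5 in microglia. Past 2-fold were 2 in endothelial cells, 2 in microglia and 0 in pericytes, smooth muscle and RGPs. The median log2 ratio over all tested genes lay from -0.05 in microglia to 0.05 in OPCs, so positive ratios were common among all genes. The share of all genes past 2-fold was not worked out for these clusters, so the counts have no background. Sox4 and Sema5a were abundant in OPCs of both libraries and not higher after ischemic injury, with Sox4 at 290 CPM and 353 CPM. The RGPs of cluster 7 had Cdkn1a at 152 CPM and 165 CPM and Serpina3n at 233 CPM and 358 CPM, so neither was higher after ischemic injury in that cluster. In pericytes Egr1 and Fos had the opposite direction, with log2 ratios of 1.93 and 1.47, against -1.13 and -0.67 in oligodendrocytes, and this difference was not tested.

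The genes named here lie on many chromosomes of the mouse genome (GRCm38, GENCODE M21). Serpina3n is at chromosome 12, 104406729 to 104414329, Klk6 at chromosome 7, 43824499 to 43832030, Cdkn1a at chromosome 17, 29090976 to 29100727, Gadd45g at chromosome 13, 51846678 to 51848468, and Grm3 at chromosome 5, 9485541 to 9725170. Among the 24 leading genes, exons of Cdkn1a, Sox4, Mt2, Bcat1, March1 and Hspa1a overlap an annotated gene on the other strand. Promoters of RefSeq (GRCm38.p6, 250 bases before to 50 bases after a start) were searched on both strands for 5 motifs in the 12 leading higher genes, all of which matched with 19 promoters in all, and in the 8 matched leading lower genes. The AP-1 motif TGANTCA was in 2 of these 19 promoters, 1 of Mt2 and 1 of Bcat1, and in 7.81% of all 32851 promoters, the STAT motif TTCNNNGAA in 1 of the 19 and 8.30%, the ATF4 motif TGATGNAA in 1 of 19 and 3.97%, the CRE motif TGACGTCA in 0 of 19 and 1.79%, and the hypoxia motif ACGTG in 4 of 19 and 19.6%. No motif was shared by most of the higher genes in these windows. The stretch around the AP-1 match of Mt2, the metallothionein of the Cdkn1a cells, is shown because Mt2 is the one of the 4 leading genes with the largest ratios that has a match. It lies at chr8:94172509-94172575 on the plus strand, with the motif in capitals starting 79 bases before the RefSeq start.
Mt2: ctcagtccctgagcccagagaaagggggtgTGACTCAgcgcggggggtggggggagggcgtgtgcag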

How the data were processed

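Single cells of 3 pooled libraries were measured. The authors deposited raw UMI counts of each gene in each cell. Reads had been aligned to mm10 (GRCm38) with Cell Ranger (version 7.0.0 in the submitters' processing notes), and cells had been filtered (at least 200 genes, at most 12% mitochondrial transcripts, within 2 SD of the mean) and clustered in Seurat. The cluster number and the percent of mitochondrial transcripts per cell were also deposited by the authors. Doublets were not called here, and an alternative left out cells with 5 or more UMIs of another cell type's markers. Counts of cluster 4 were summed per library (7043346 UMIs physical, 17314657 UMIs ischemic, 1308541 UMIs naive) and divided by their total. Log2 ratios use a pseudocount of 1 CPM and need 20 CPM in the higher library. Their intervals are exact conditional binomial, those of levels exact Poisson and those of shares Clopper-Pearson (95%), without a pseudocount. A count of 0 in the naive cells allows up to 2.82 CPM by the exact Poisson interval.

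Genes named by rule are the leading genes, that is the 12 largest ratios each way at 50 CPM or more with a UMI in at least 10% of cells of the higher library, leaving out mitochondrial, sex-linked and authors' removed genes, and, in each gene list, up to 4 largest ratios and the most abundant gene. The members and lists were chosen with earlier results of these data known. Thinning drew UMIs without replacement. The sex of a cell was read from Xist and from Ddx3y, Eif2s3y, Kdm5d and Uty. The comparison was tested on simulated data. Alternatives changed the scaling, pseudocount, minimum CPM, depth and cells kept. Computation used scipy 1.17.1, pandas 2.3.3 and numpy 2.4.6 in Python 3.11.15, with TMM factors from edgeR 4.0.16 in R 4.3.3. The annotation release of the authors is not given in the sources used here.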

Additional observations from a re-analysis of the deposited data

Results flagged for a closer look

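The directions of 4 genes were opposite in mature oligodendrocytes and in OPCs of the same libraries, and that of 1 gene in the sexes of the cells. Sox4 had a log2 ratio of ischemic over physical injury of -0.28 (-0.40 to -0.17) in OPCs and 2.97 in oligodendrocytes, and Sema5a of -0.17 (-0.29 to -0.05) in OPCs and 2.33 in oligodendrocytes. Hspa1a had 0.72 (0.37 to 1.13) in OPCs and -1.60 in oligodendrocytes, and Egr1 0.20 (0.12 to 0.29) and -1.13. Ifit3 had 3.80 in cells with Xist, where the physical injury library had 0 UMIs and the value depends on the pseudocount, and -4.56 in Y-linked cells, where 140 UMIs of 1 physical injury cell set it. With 1 library per condition these differences were not tested.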

How the results depend on the processing

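With other scalings (TMM, median of ratios, totals without mitochondrial and ribosomal genes), the ratios of all 24 leading genes stayed within their counting intervals. All 24 kept their direction under each of the 17 alternatives. The 125 higher and 18 lower genes became 592 and 54 with no minimum CPM, 16 and 8 at 100 CPM, and 241 and 87 with cells thinned to 2000 UMIs. Without cells at 5 or more UMIs of another type's markers 75 were higher. Alternatives chosen after seeing the data gave 80 and 10 below the shared ceiling, 41 higher without Serpina3n or Cdkn1a cells, and 47 lower in cells with Xist. The cause was not tested. Ifit3 turned to 2.35 without the Serpina3n or Cdkn1a cells and to 3.80 in cells with Xist, and Vim to -0.33 there. The share of cluster 4 was 43.8% and 44.7% within clusters 4, 6 and 7, and 14.2% in the ischemic library below the ceiling. No paired analysis was possible because each condition has 1 library. Depth limits the naive cells most, whose 0 counts allow up to 2.82 CPM.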
